A study of Mus musculus with 9 samples.

Results

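The genes examined were 10 genes of hyaluronan and of proteoglycans, which are linked to the fluid and matrix of the ovarian follicle. They were taken by symbol (Has2, Tnfaip6, Ptx3, Itih2, Itih4, Itih5, Cd44, Vcan, Cspg4 and Hspg2) from tables that list 52025 genes, and each symbol matched 1 row. Ovaries of Kunming mice, an outbred strain, were compared at PD14, PD15 and PD16 (postnatal days 14, 15 and 16), the window in which the study places the initial formation of the follicular antrum. There were 9 libraries, 3 for each day, all from the same strain and with no genotype or treatment among them, so age was the only difference between the groups that the labels give. The study's methods describe whole ovaries, whereas the labels name granulosa cells as the source. Markers of oocytes (9 of 9 tested) and of theca (6 of 6), stroma (6 of 6) and endothelium (6 of 6) were all detected beside the 9 of granulosa cells, so the libraries held RNA of other ovarian cells too. In such bulk RNA, fewer cells of a type and less RNA per cell cannot be told apart.

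The follicular antrum fills with fluid whose large hydrophilic molecules, hyaluronan and proteoglycans, hold water. Hyaluronan is a long sugar chain spun out at the cell surface by hyaluronan synthases, and heavy chains of the inter-alpha-trypsin inhibitors can be bound to it by the enzyme TSG-6 (Tnfaip6) and cross-linked by the pentraxin Ptx3. This matrix is best known from the cumulus, which expands just before ovulation. Proteoglycans such as versican (Vcan) and perlecan (Hspg2) carry chondroitin or heparan sulfate chains and are found in follicular fluid and in the follicle's basement membrane.

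The values were FPKM, that is fragments scaled by transcript length and by library size, so levels could be compared between genes. The low values rise in steps of a single fragment, and from these steps the libraries held between 20.4 and 28.7 M fragments (median 24.2 M). For tests, values were taken as log2(FPKM + 1) and entered into limma, a linear model fitted across all genes, with p-values adjusted over the 15495 genes that exceeded an FPKM of 1 as the mean of any day. Of the 10 genes, 7 passed this limit and were tested, all with a mean above 1 on each day, and Has2, Tnfaip6 and Itih4 did not. Differences given on the log2 scale are those of log2(FPKM + 1). Where a gene is low, they are smaller than the log2 ratio of its FPKM. The study speaks of biologically independent ovaries, but the labels do not say which animals they came from, so the p-values measure only the spread between these samples.

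The levels of the 10 genes spanned a wide range, from an FPKM of 109 for Itih5 to 0.170 for Has2 as means over the 9 libraries. Itih5, Hspg2 (35.8) and Vcan (28.5) were the most abundant, at percentiles 97.4, 90.1 and 86.5 of the genes tested. Itih2 (5.87), Cspg4 (3.04), Cd44 (2.36) and Ptx3 (2.04) followed, at percentiles 44.1 to 19.4. Tnfaip6 (0.373), Itih4 (0.183) and Has2 were below an FPKM of 1 in all 9 libraries. In this order of levels, the libraries of Itih5 did not overlap those of Hspg2, nor those of Vcan and Itih2, Itih2 and Cspg4, or Ptx3 and Tnfaip6. The neighbours Hspg2 and Vcan overlapped, although Hspg2 was higher in 9 of 9 libraries, and so did Cspg4 and Cd44, with Cspg4 higher in 9 of 9. Cd44 was higher than Ptx3 in 6 of 9 libraries, Tnfaip6 higher than Itih4 in 7 of 9 and Itih4 higher than Has2 in 5 of 9, so these neighbours were not separated beyond their spread.

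**Figure D1:**
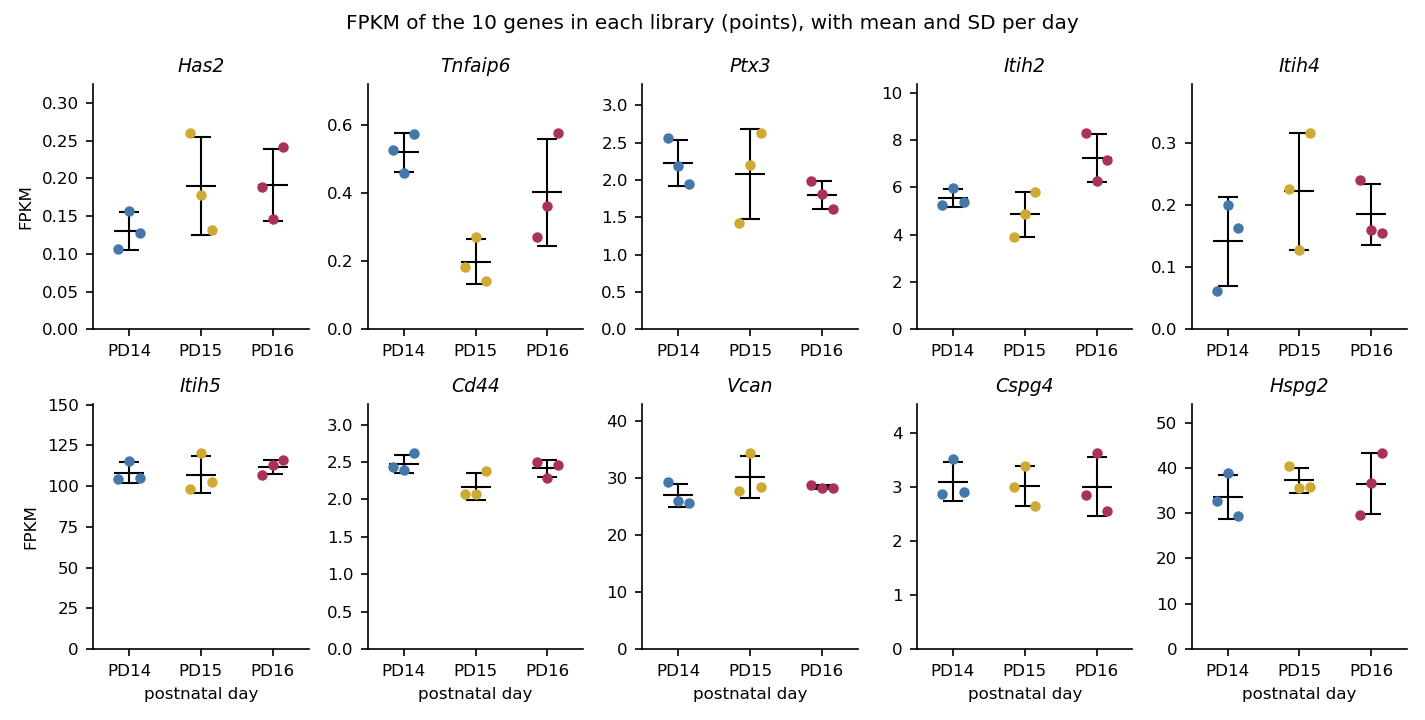
FPKM (linear axis from 0, a scale of its own for each gene) of the 10 genes by postnatal day. Points are libraries, 3 for each day, and the bars give the mean and SD of a day. Itih2 sits highest at PD16, where its libraries run from 6.26 to 8.28, and Tnfaip6 lowest at PD15, where they run from 0.142 to 0.270, whereas Itih5 and Cspg4 overlap on all days.

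No gene of the 7 tested rose or fell at an adjusted p under 0.05. Between PD15 and PD14, 0 of 7 genes passed in limma, where 0.336% of all genes tested rose and 0.342% fell. Between PD16 and PD14, 0 of 7 passed, where 2.36% of all genes rose and 1.89% fell. Between PD16 and PD15, 0 of 7 passed, where 0.432% of all genes rose and 0.297% fell. The F test for any difference among the 3 days also passed for 0 of 7, against 3.03% of all genes. Against shares this small, a count of 0 among 7 genes says nothing particular about them. Without adjustment, 2 of the 21 comparisons had a p under 0.05, and both belonged to Itih2. The unadjusted p was under 0.05 for 22.8% of all genes between PD16 and PD14 and for 14.1% between PD16 and PD15.

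**Figure D2:**
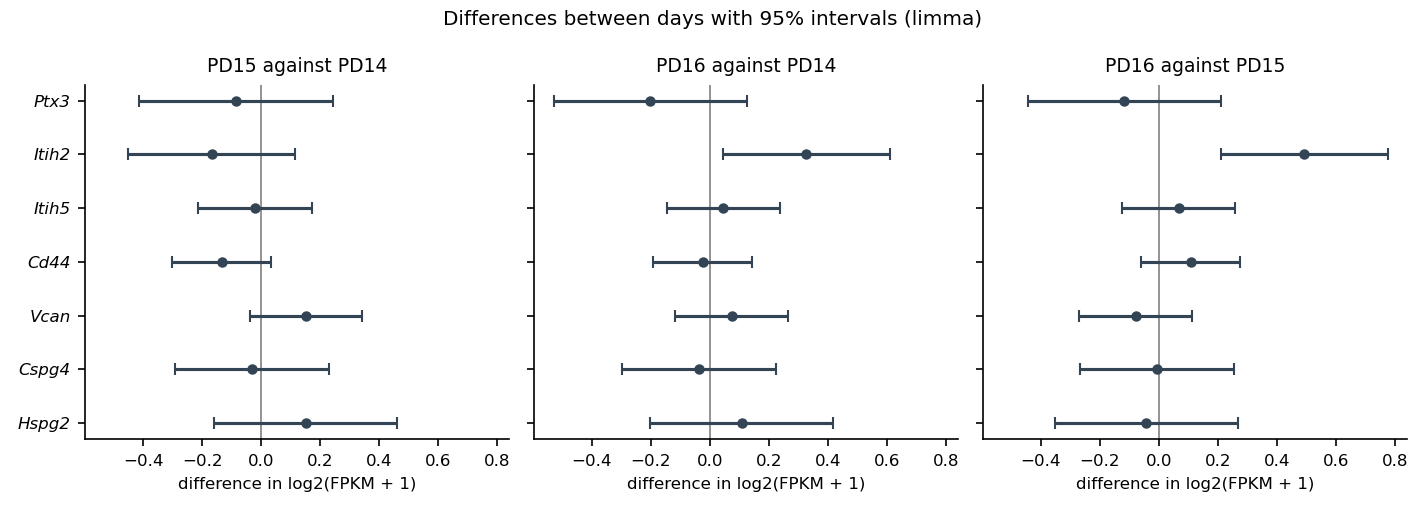
Differences between days on the log2(FPKM + 1) scale for the 7 genes tested, in 3 panels, 1 for each comparison. Points are the limma estimates from 9 libraries and bars their 95% intervals without adjustment for the number of genes. The 2 intervals that lie above 0 are those of Itih2 at PD16, starting at 0.04 and 0.21, and all others include 0.

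All 10 genes were then put to an exact permutation test over the 280 groupings of the 9 libraries into 3 days (1-sided, smallest possible p = 0.00357). This test needs no limit on low values. The share of the sum of squares that lay between days was 66.6% for Itih2 (exact permutation p = 0.025) and 72.6% for Tnfaip6 (exact permutation p = 0.0357). For Cd44 it was 58.0% (exact permutation p = 0.075), and the other 7 genes had an exact p from 0.279 (Has2) to 0.929 (Cspg4). A p under 0.05 in this test was thus found for 2 of 10 genes, close to the 18.5% of all genes tested. The median share between days over all genes tested was 36.7%.

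Promoters are shown for Itih2 and Tnfaip6, the genes with an exact p under 0.05 in the test above, and for Itih5, the neighbour of Itih2. They come from RefSeq on GRCm38.p6, the assembly also called mm10, and span 250 bases before to 50 bases after the start. Of the 10 genes, 9 had an entry (all but Has2). Capitals mark matches on either strand to any of 6 motifs, none of which overlap in these 3 windows. The TATA box was searched as the letters TATAAA. The box named after its letters CCAAT is bound by NF-Y, and the GC box, bound by Sp1, was searched as GGGCGG. The letters of nuclear receptor sites were AGGTCA. The cAMP response element was searched as TGACGTCA, and the AP-1 site, whose middle base is free, as TGANTCA. The windows are chr2:10130634-10130933 on the minus strand for Itih2, chr2:10153293-10153592 on the plus strand for Itih5 and chr2:52037863-52038162 on the plus strand for Tnfaip6. The RefSeq start that places a window differs from the GENCODE start of the gene given further on, and lies 713 bases inside the gene for Itih2, 104 bases inside for Tnfaip6 and 28 bases outside for Itih5.
Itih2: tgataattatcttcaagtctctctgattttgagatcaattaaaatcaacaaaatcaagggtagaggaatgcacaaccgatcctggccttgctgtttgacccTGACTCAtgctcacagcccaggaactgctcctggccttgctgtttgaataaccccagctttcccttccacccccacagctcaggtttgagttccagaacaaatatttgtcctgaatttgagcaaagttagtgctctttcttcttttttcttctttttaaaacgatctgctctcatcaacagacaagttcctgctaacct
Itih5: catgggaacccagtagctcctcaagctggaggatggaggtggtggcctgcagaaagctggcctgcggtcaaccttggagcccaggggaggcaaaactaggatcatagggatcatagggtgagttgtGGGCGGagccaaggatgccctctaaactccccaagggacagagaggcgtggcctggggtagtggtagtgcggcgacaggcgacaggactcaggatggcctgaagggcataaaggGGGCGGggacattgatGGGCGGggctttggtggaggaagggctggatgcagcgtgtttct
Tnfaip6: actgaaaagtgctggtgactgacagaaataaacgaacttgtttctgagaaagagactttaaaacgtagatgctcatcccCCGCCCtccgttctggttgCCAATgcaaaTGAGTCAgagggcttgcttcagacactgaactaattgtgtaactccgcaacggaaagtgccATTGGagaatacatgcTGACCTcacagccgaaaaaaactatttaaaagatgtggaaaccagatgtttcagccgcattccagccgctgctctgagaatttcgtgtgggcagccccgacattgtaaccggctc

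Counted from the start, with the leftmost base of the match, the Itih2 window held an AP-1 match at -149. The Itih5 window held GC boxes at -124, -10 and 7. The Tnfaip6 window held a GC box at -171, CCAAT boxes at -152 and -81, an AP-1 match at -142 and nuclear receptor letters at -65. The windows of the neighbours Itih2 and Itih5 thus shared none of these motifs, whereas each shared 1 kind with Tnfaip6. GC content was 42.3% for Itih2, 60.7% for Itih5 and 47% for Tnfaip6, against a median of 52.7% over all 32851 promoters. Over the 9 promoters, the GC box was found in 6 (Vcan, Hspg2, Cspg4, Tnfaip6, Itih5 and Cd44), against 35.7% of all promoters. The 3 most abundant genes were among them, but so was the low Tnfaip6. The AP-1 letters were in 2 of 9, against 7.81% of all promoters, the CCAAT box in 2 (Vcan and Tnfaip6), against 37.4%, and the nuclear receptor letters in 2 (Tnfaip6 and Itih4), against 16.3%. The TATA box was in 1 (Itih4), against 13.6%, and the cAMP response element in 0 of 9, against 1.79%. A match is a run of letters and not a measured site.

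Has2 (chr15:56665627-56694539, minus strand, GRCm38, here and below the gene in GENCODE M21), the hyaluronan synthase that is induced in the expanding cumulus, was barely detected. Its FPKM was 0.106, 0.156 and 0.127 at PD14, 0.260, 0.179 and 0.131 at PD15 and 0.188, 0.146 and 0.241 at PD16. The days overlapped, with the 2 highest libraries at PD15 and PD16. These values stood for 11 to 28 fragments per library, and the 3 libraries of a day summed to 38 fragments at PD14 (exact 95% Poisson interval 26.9 to 52.2), 62 at PD15 (47.5 to 79.5) and 59 at PD16 (44.9 to 76.1). Such intervals cover counting error only. Has2os, a transcript of the opposite strand, shares 182 exon bases with Has2 and was at 0.0254 to 0.258 FPKM, and the kit named in the methods does not mark strand, so reads of the shared bases cannot be assigned to either. The other synthases differed in level, since Has3 was at 1.28 to 1.90 FPKM and higher than Has2 in 9 of 9 libraries, by 9.90-fold as a ratio of means, and Has1 was at 0.0603 to 0.449.

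Tnfaip6 (chr2:52038009-52056686, plus strand), whose product TSG-6 moves heavy chains onto hyaluronan, was low as well, with its lowest values at PD15. Its FPKM was 0.525, 0.460 and 0.574 at PD14, 0.184, 0.270 and 0.142 at PD15 and 0.270, 0.361 and 0.575 at PD16. All 3 libraries of PD15 were below all 3 of PD14, whereas PD16 overlapped PD14 and, by a margin in the fourth decimal, PD15. The mean was 0.520 ± 0.0573 at PD14, 0.199 ± 0.0652 at PD15 and 0.402 ± 0.156 at PD16 (SD, n = 3), so PD15 was at 0.383 of PD14. The libraries held 22, 19 and 20 fragments at PD14, 8, 11 and 7 at PD15 and 11, 14 and 25 at PD16. The daily sums of 61 (46.7 to 78.4), 26 (17.0 to 38.1) and 50 fragments (37.1 to 65.9) had separate exact 95% Poisson intervals at PD14 and PD15 only, although the PD15 libraries were of similar or greater depth (23.8 to 28.7 M fragments against 20.4 to 24.5 M). When the limit was lowered to a mean FPKM of 0.1, limma covered Tnfaip6. PD15 was then 0.34 lower than PD14 on the log2(FPKM + 1) scale (SE 0.09, limma adjusted p = 0.190). PD16 was 0.22 higher than PD15 on that scale (SE 0.09, limma adjusted p = 0.393), so neither passed. Below an FPKM of 1, the added 1 makes such differences much smaller than those of the FPKM. The means stood in ratios of 0.383 (PD15 over PD14) and 2.02 (PD16 over PD15). Without any limit, the adjusted p between PD15 and PD14 was 0.241. The marker sums of 4 lists also had PD15 below PD14 without overlap. Those of red cells ran from 105 to 147 FPKM at PD14, 46.4 to 63.2 at PD15 and 60.8 to 116 at PD16 (5 of 5 markers tested, 1 fell at PD15). Those of fat ran from 6.86 to 8.02, 4.58 to 5.16 and 4.24 to 6.03 (1 of 4 tested, which fell at PD15), and those of stroma from 538 to 630, 464 to 535 and 536 to 562 (6 of 6 tested, 0 changed). Those of endothelium ran from 57.6 to 60.9, 53.1 to 57.3 and 51.8 to 54.5 (6 of 6 tested, 0 changed). Oocyte markers went the other way, with 1034 to 1287 at PD14, 1307 to 1389 at PD15 and 977 to 1029 at PD16 (9 of 9 tested, 0 changed at PD15 against PD14). The part of these cells in the result was not tested.

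**Figure D3:**
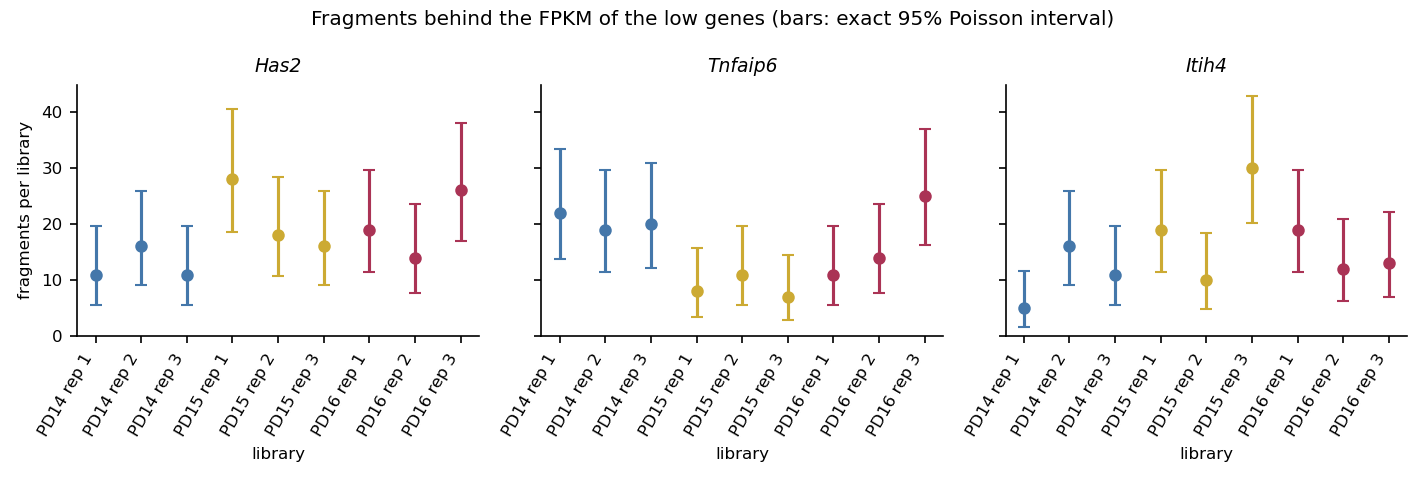
Fragments behind the FPKM of Has2, Tnfaip6 and Itih4 in each library (linear axis from 0), as derived from the FPKM steps. Bars are exact 95% Poisson intervals and colours mark the days. Tnfaip6 has 7 to 11 fragments in the PD15 libraries and 19 to 22 in those of PD14, and the days of Has2 and Itih4 overlap.

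Ptx3 (chr3:66219910-66225805, plus strand), the pentraxin that cross-links hyaluronan through its heavy chains, had the widest spread within a day among the genes tested, a coefficient of variation of 29.3% at PD15. Its FPKM was 2.56, 2.19 and 1.94 at PD14, 1.42, 2.19 and 2.62 at PD15 and 1.99, 1.81 and 1.61 at PD16. The PD15 libraries contained both the lowest and the highest value, and all days overlapped. PD16 differed from PD14 by -0.20 on the log2 scale (95% interval -0.53 to 0.13, limma adjusted p = 0.445), and 97 to 202 fragments lay behind each value. With 1 library left out, that difference ran from -0.27 to -0.13.

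The heavy chain family of inter-alpha-trypsin inhibitor, several of whose products become bound to hyaluronan, differed most in level. Itih5 (chr2:10153571-10256529, plus strand) was the most abundant of the 10 genes. Its FPKM was 104, 116 and 105 at PD14, 98.2, 120 and 103 at PD15 and 107, 113 and 116 at PD16. The days overlapped, and the lowest and the highest library were both from PD15. Its differences between days lay from -0.021 to 0.067 on the log2 scale, with 95% intervals from -0.21 to 0.26 in all (limma adjusted p 0.792 to 0.935).

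Itih2 (chr2:10094593-10131396, minus strand) begins 22.2 kb from Itih5 by the GENCODE starts and is read in the opposite direction, with 0 annotated genes between them. Itih5 was 18.6-fold higher as a ratio of means, from 12.9-fold to 25.2-fold within a library. The FPKM of Itih2 was 5.27, 5.97 and 5.36 at PD14, 3.90, 4.89 and 5.81 at PD15 and 8.28, 6.26 and 7.14 at PD16. All 3 libraries of PD16 were above the 6 others, and PD14 and PD15 overlapped. The mean was 5.53 ± 0.380 at PD14, 4.87 ± 0.954 at PD15 and 7.23 ± 1.01 at PD16 (SD, n = 3), with 329 to 654 fragments behind a value. Between PD16 and PD15 the difference was 0.49 on the log2(FPKM + 1) scale, and the means stood in a ratio of 1.49 (SE of the difference 0.13, 95% interval 0.21 to 0.78, limma adjusted p = 0.114). Between PD16 and PD14 it was 0.33 (SE 0.13, 95% interval 0.04 to 0.61, limma adjusted p = 0.162). Neither passed after adjustment, and PD15 differed from PD14 by -0.17 (95% interval -0.45 to 0.12, limma adjusted p = 0.578). With 1 library left out, the difference of PD15 from PD14 ran from -0.28 to -0.043. Itih2 was the only gene of the 7 tested whose PD16 libraries did not overlap those of PD14, which held for 28.5% of all genes, and those of PD15, which held for 19.6%. Over all alternatives, the adjusted p between PD16 and PD15 ran from 0.0873 to 0.296. Marker sums also differed at PD16. Surface epithelium was at 53.3 to 59.4 FPKM at PD16 and at 68.9 to 80.6 at PD14 (6 of 6 markers tested, 4 fell), with 66.3 to 71.6 at PD15. Oocyte markers were at 977 to 1029 at PD16, 1307 to 1389 at PD15 and 1034 to 1287 at PD14 (9 of 9 tested, 1 rose and 0 fell at PD16 against PD14, 0 rose and 1 fell against PD15). Markers of pericytes and smooth muscle, with 7 of 7 tested, had higher means at PD16 than at PD15 in 7 of 7 (0 passed), and their sums overlapped between the days, at 315 to 399 at PD15 and 358 to 458 at PD16. Against PD14, 1 of these 7 rose and 1 fell at PD16, and so did 1 and 1 of the 9 granulosa markers, whose sums overlapped between all days (2783 to 3594). Sums of 2 further lists were higher at PD16 than at PD15 without overlap, as Itih2 was. Stroma was at 464 to 535 FPKM at PD15 and at 536 to 562 at PD16 (6 of 6 tested, 0 changed), and macrophages and leukocytes were at 5.77 to 6.48 and at 6.65 to 7.51 (4 of 6 tested, 0 changed), while the PD14 sums of both overlapped those of PD16. Against PD14, endothelium (57.6 to 60.9 at PD14, 51.8 to 54.5 at PD16, 6 of 6 tested, 0 changed) and fat (6.86 to 8.02 and 4.24 to 6.03, 1 of 4 tested, which fell) were lower at PD16 without overlap. Liver markers, from the organ that makes most of the circulating heavy chains, summed to 1.57 to 3.37 FPKM (1 of 4 tested) with no day apart, and the part of these cells in the result was not tested.

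Itih4 (chr14:30886476-30902353, plus strand), a member of the family whose gene lies beside Itih3 and Itih1, was close to the limit of detection. Its FPKM was 0.0615, 0.200 and 0.163 at PD14, 0.225, 0.127 and 0.315 at PD15 and 0.240, 0.159 and 0.154 at PD16. The days overlapped, on 5 to 30 fragments per library. Daily sums were 32 (exact 95% Poisson interval 21.9 to 45.2), 59 (44.9 to 76.1) and 44 fragments (32.0 to 59.1). Of its neighbours, Itih1 was listed at 0 in all 9 libraries. Itih3 ran from 0.516 to 0.621 FPKM at PD14, 0.853 to 1.26 at PD15 and 0.484 to 0.843 at PD16. Its PD15 libraries lay above those of both other days. Such a lack of overlap held for 20.6% (PD15 and PD14) and 19.6% (PD16 and PD15) of all genes. Neither difference of Itih3 passed (limma adjusted p = 0.187 against PD14 and 0.248 against PD16). Ambp, which encodes the light chain bikunin, was at 0 to 0.116.

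Cd44 (chr2:102811141-102901665, minus strand), the main cell surface receptor of hyaluronan, was low on all days. Its FPKM was 2.43, 2.39 and 2.62 at PD14, 2.07, 2.07 and 2.37 at PD15 and 2.50, 2.29 and 2.46 at PD16. The 3 libraries of PD15 were below those of PD14, by a narrow gap, and PD16 overlapped both. Cd44 was the only gene of the 7 tested without overlap between PD15 and PD14, which held for 20.6% of all genes. The difference of -0.13 on the log2 scale (SE 0.07, 95% interval -0.30 to 0.03) did not pass in limma (adjusted p = 0.442). Stromal markers were likewise lower at PD15, with a sum of 464 to 535 FPKM against 538 to 630 at PD14 (0 of 6 changed in the test). Sums of red cells, fat and endothelium were also lower at PD15 without overlap and those of oocytes higher, with the values given for Tnfaip6. The part of all these cells in the difference was not tested.

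Vcan (chr13:89655312-89742509, minus strand), which encodes versican, a chondroitin sulfate proteoglycan that binds hyaluronan, was among the most abundant genes on each day. Its FPKM was 29.3, 25.9 and 25.6 at PD14, 27.7, 34.3 and 28.5 at PD15 and 28.8, 28.1 and 28.2 at PD16. PD16 was the tightest of the days, at 28.4 ± 0.365 (SD, n = 3), and lay inside the ranges of both other days. The largest difference was that of PD15 from PD14, 0.15 on the log2 scale (SE 0.09, 95% interval -0.04 to 0.34, limma adjusted p = 0.439). It rested largely on the highest PD15 library, replicate 2, without which it was 0.06 (limma adjusted p = 0.752). Without that library PD16 differed from PD15 by 0.02 in place of -0.08, neither of which passed.

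Hspg2 (chr4:137468769-137570630, plus strand) encodes perlecan, a heparan sulfate proteoglycan of basement membranes. Its FPKM was 32.7, 38.9 and 29.3 at PD14, 40.5, 35.7 and 35.8 at PD15 and 29.7, 36.6 and 43.2 at PD16. PD16 alone spanned nearly the range of all libraries, and no day stood apart. PD15 differed from PD14 by 0.15 on the log2 scale (95% interval -0.16 to 0.46, limma adjusted p = 0.653) and PD16 from PD14 by 0.11 (95% interval -0.20 to 0.42, limma adjusted p = 0.682). The former was 0.061 without PD14 replicate 3 and 0.26 without PD14 replicate 2. The latter was -0.018 without PD16 replicate 3 and 0.25 without PD16 replicate 1. Cspg4 (chr9:56865033-56899870, plus strand), which encodes the membrane proteoglycan NG2 of pericytes, was at 2.87, 3.51 and 2.91 at PD14, 2.99, 3.39 and 2.65 at PD15 and 2.85, 3.62 and 2.55 at PD16. Its days overlapped almost completely, and only 1.71% of its variance lay between them. Its 3 differences had 95% intervals from -0.30 to 0.25 on the log2 scale and limma adjusted p-values from 0.878 to 0.987.

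Aside from Itih2, the 6 other genes tested differed between days by -0.20 to 0.15 on the log2 scale. Their 95% intervals ran from -0.53 to 0.46 in all, and their limma adjusted p-values from 0.439 to 0.987. The depth behind them was high for Itih5 (median 20207 fragments per library), Hspg2 (12143) and Vcan (10185), lower for Cspg4 (908) and Cd44 (391) and lowest for Ptx3 (127). The intervals were not simply ordered by that depth, since the SE was 0.14 for Hspg2 and 0.07 for Cd44. A p that misses the threshold does not show that a gene kept its level. The intervals give the changes in log2(FPKM + 1) that remain possible, and for low genes the changes in FPKM can be larger. For Ptx3 at PD16 against PD14, the estimate of -0.20 equals a factor of 0.869, whereas the FPKM means stood in a ratio of 0.808.

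The genes around them were examined in 8 lists with 134 symbols, the 10 genes included, of which 133 were in the tables and 92 were tested. Between PD15 and PD14, 0 of 92 genes passed in limma, beside 0.336% of all genes that rose and 0.342% that fell. Between PD16 and PD14, 4 of 92 rose (4.35%, beside 2.36% of all genes) and 0 fell (1.89% of all genes). Between PD16 and PD15, 2 of 92 rose (2.17%, beside 0.432% of all genes) and 0 fell (0.297% of all genes). The counts for single lists that follow are to be read against these same shares, and with 3 to 38 genes a list, 1 call is a description of that gene and not of its list. The median differences of the 92 genes were -0.025, 0.0061 and 0.041 on the log2 scale for PD15 against PD14, PD16 against PD14 and PD16 against PD15, beside 0.0065, 0.0093 and 0.0091 over all genes tested. The 5 genes that passed came from 5 of the 8 lists.

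Among genes of hyaluronan synthesis and turnover, 1 of 10 tested rose at PD16 against PD14 and 0 fell. Gfpt2, which encodes an enzyme that feeds the hexosamine pathway, had an FPKM of 3.88, 4.87 and 4.57 at PD14, 5.54, 5.31 and 4.58 at PD15 and 5.99, 6.64 and 6.15 at PD16. Each PD16 library was above each of the earlier days, a difference of 0.42 from PD14 (SE 0.09, limma adjusted p = 0.0337). The most abundant genes were Ugp2 (mean FPKM 31.6), which makes UDP-glucose, the hyaluronidase gene Hyal2 (17.8) and Gfpt1 (16.2), and none of these passed. Of the hyaluronan-binding matrix and receptor genes, 0 of 10 tested passed in any comparison, Itih5 being the most abundant, followed by Habp4 (16.9) and Layn (7.22). Of the lecticans and link proteins, which tie proteoglycans to hyaluronan, 0 of 3 tested passed, and Bcan (3.05) and Hapln3 (0.999) were far lower than Vcan.

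The heparan sulfate proteoglycans held the gene whose call withstood the most alternatives. Sdc3, which encodes a syndecan, a heparan sulfate proteoglycan of the cell membrane, was 1 of 12 tested that rose at PD16 against PD14 and against PD15. Its FPKM was 14.2, 14.2 and 12.9 at PD14, 13.9, 14.7 and 13.0 at PD15 and 18.4, 19.5 and 18.1 at PD16. The PD16 libraries were well apart from the 6 others, which overlapped. Sdc3 was 0.41 higher on the log2 scale than at PD14 (SE 0.06, limma adjusted p = 0.0148) and 0.41 higher than at PD15 (SE 0.06, limma adjusted p = 0.0336). The call against PD14 held under 17 of 19 alternatives and was lost without PD14 replicate 3 (adjusted p = 0.0569) and without PD16 replicate 1 (adjusted p = 0.0557). The call against PD15 held under 10 of 19 alternatives, and it was lost when any of the PD15 or PD16 libraries was left out (adjusted p 0.0622 to 0.118). More abundant members of this list did not pass, with Sdc1 at a mean FPKM of 72.9, Gpc4 at 71.0 and Gpc3 at 61.1.

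Among the small leucine-rich and other proteoglycans, 1 of 11 tested rose at PD16 against PD14. Omd, which encodes the keratan sulfate proteoglycan osteomodulin, had an FPKM of 15.0, 14.6 and 18.4 at PD14, 24.7, 17.7 and 32.7 at PD15 and 33.7, 26.2 and 41.8 at PD16. PD16 was above PD14 without overlap, and PD15 overlapped both. The difference of 1.02 on the log2(FPKM + 1) scale (SE 0.22, limma adjusted p = 0.0355) was the largest on that scale among the pathway genes that passed. Adamts5 differed by 0.84 between PD16 and PD15 on that scale, which shrinks the differences of a gene with a lower FPKM more. Ogn (mean FPKM 136), Lum (74.7) and Dcn (52.5), which bind collagen in stroma, were more abundant and did not pass. Of the enzymes that build and sulfate glycosaminoglycan chains, 1 of 38 tested rose at PD16 against PD14, close to the 2.36% of all genes. Csgalnact2, which starts chondroitin sulfate chains, was at 8.12, 8.46 and 7.86 at PD14, 8.37, 9.47 and 9.52 at PD15 and 11.4, 9.56 and 10.7 at PD16, a difference of 0.34 (SE 0.08, limma adjusted p = 0.0407). The highest levels in this list were those of the heparan sulfatase gene Sulf2 (mean FPKM 147), Papss1 (36.3), which makes the sulfate donor, and Extl3 (29.5), and none passed.

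Of the 4 versican-cleaving proteases tested, 1 rose at PD16 against PD15. Adamts5 had an FPKM of 2.95, 2.78 and 3.19 at PD14, 2.07, 2.99 and 1.93 at PD15 and 5.14, 3.88 and 5.82 at PD16. All PD16 libraries were above the 6 others. Adamts5 was 0.84 higher than at PD15 on the log2 scale (SE 0.14, limma adjusted p = 0.0439) and 0.57 higher than at PD14 (SE 0.14, limma adjusted p = 0.0586), which did not pass. The marker sums of stroma and of macrophages and leukocytes were also higher at PD16 than at PD15 without overlap, those of oocytes and surface epithelium were lower, with the values given for Itih2, and their part in the result was not tested. Adamts9 (mean FPKM 5.81), Adamts1 (5.55) and Adamts4 (2.40) did not pass, and neither did their substrate gene Vcan. Of the cumulus expansion and ovulation genes, 0 of 7 tested passed, with Adamts1, Star (4.74) and Pde3a (3.71) as the most abundant. Of the genes that are known to be induced with Has2 and Tnfaip6 before ovulation, Ptgs2 was at 0 to 0.0858 FPKM and Areg at 0 to 0.202, both below the limit for testing. Other ovulation genes were higher. Ereg ran from 0.381 to 0.752 FPKM and Pgr from 0.443 to 1.04, also below that limit, and Runx1 (mean FPKM 2.85) and Ptger2 (2.60) were tested.

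The other calls held under 9 of 19 alternatives for Gfpt2, 11 for Omd, 8 for Csgalnact2 and 7 for Adamts5. When single libraries were left out, Gfpt2 kept its call without PD14 replicate 2, PD15 replicate 1 or PD15 replicate 3, and otherwise had an adjusted p of 0.0518 to 0.0993. Omd kept it without PD15 replicate 2, PD15 replicate 3 or PD16 replicate 2, and otherwise had 0.0555 to 0.105. Csgalnact2 kept it without PD15 replicate 1, PD15 replicate 3 or PD16 replicate 2, and otherwise had 0.0586 to 0.133. Adamts5 kept it without PD15 replicate 2 or PD16 replicate 2, and otherwise had 0.0513 to 0.142. The direction was the same in every one of these fits. The marker sums given for Itih2 that were apart at PD16 from PD14 or from PD15 stand beside the calls of Sdc3, Gfpt2, Omd and Csgalnact2 as well, and their part in these was not tested.

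**Figure D4:**
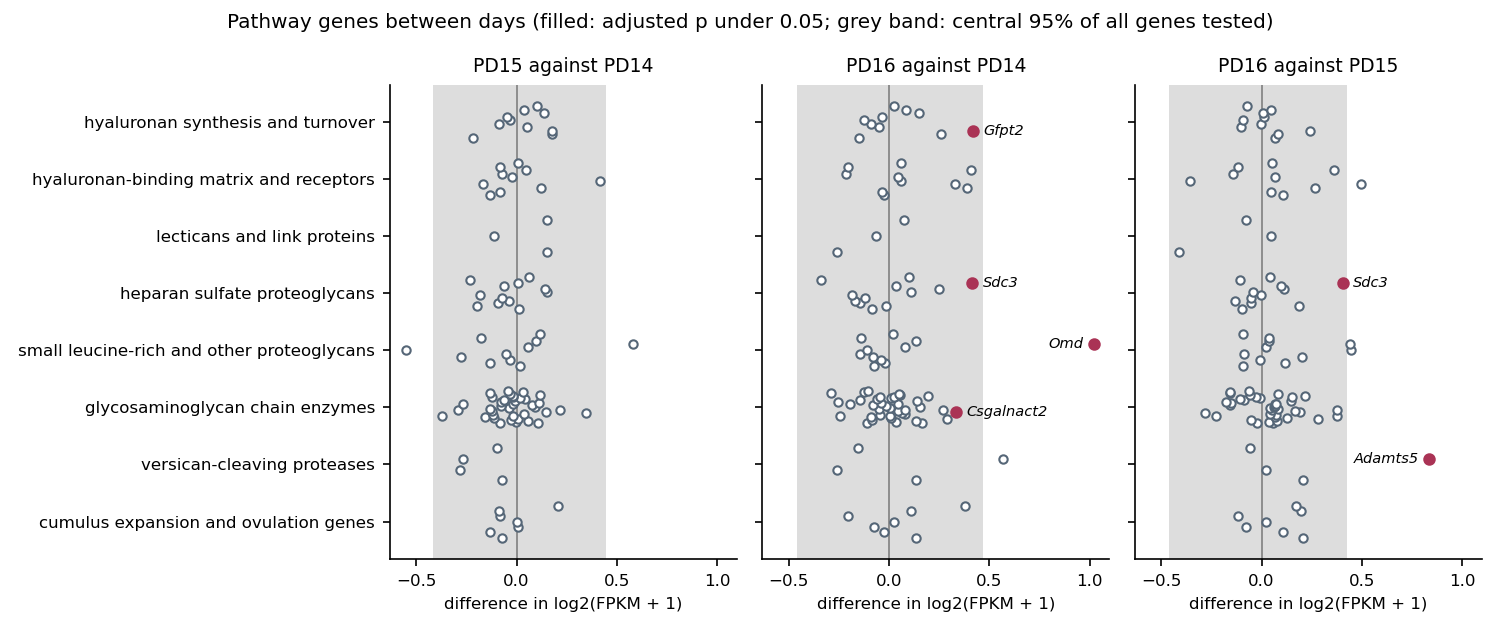
Differences between days on the log2(FPKM + 1) scale for the tested genes of 8 lists, in 3 panels, 1 for each comparison. Each point is a gene, filled where the limma adjusted p was under 0.05, and the grey band holds the central 95% of all genes tested (from -0.46 to 0.47 for PD16 against PD14). Nearly all points lie within the band, and the filled points lie to the right of 0.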

How the data were processed

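RNA of 9 mouse ovary samples had been sequenced on an Illumina HiSeq platform from NEBNext Ultra libraries. The authors deposited 1 table of FPKM per library, which entered the analysis without rescaling. The submitters' processing notes name HISAT2 2.0.5 and mm10, and the counting tool is not given in the sources used here. Exon lengths and gene coordinates came from GENCODE M21. Between 95.3% and 96.0% of low values (under 10 fragments) came out as whole fragments, within 0.05. For Itih4, the length implied by its steps was used.

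Tests used limma 3.58.1 (R 4.3.3) on log2(FPKM + 1) with an intensity trend, in 1 fit of all libraries, with Benjamini-Hochberg adjustment and a threshold of 0.05. Exact tests used Python 3.11.15 and SciPy 1.17.1. The method was tested on simulated data. Alternatives were other pseudocounts, limits, scalings and trends, only the libraries compared, the replicate number as a block, and each library left out. Same-numbered libraries deviated together (correlation above 0.1) in 2 of 9 pairs, so the numbers were not taken as pairs. The members and lists were chosen with earlier results of these data known. Named were all 10 genes, each list gene with an adjusted p under 0.05 and up to 3 more by mean FPKM. Has1, Has3, Has2os, Itih1, Itih3, Ambp, Ptgs2, Areg, Ereg, Pgr, Runx1 and Ptger2 were named for their role after their values were seen.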

Additional observations from a re-analysis of the deposited data

How the results depend on the processing

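Under each of 19 alternatives, 0 of the 7 genes tested (10 under lower limits) passed in any comparison of 2 days, as in limma's result above, and the same held for the F test under its 18 alternatives. The exact test gave a p under 0.05 for 2 of 10 genes under the pseudocounts 0.1 and 0.5 and under median-ratio factors too. Of 399 alternative values of the 21 differences, 20 changed sign, none of them past the threshold, and the 3 differences of Itih2 kept theirs. With the replicate block, 0 of 7 genes passed. It left 24 of 105 calls over all genes for PD15 against PD14, 227 of 659 for PD16 against PD14, 56 of 113 for PD16 against PD15 and 127 of 469 for the F test. Same-numbered libraries correlated from -0.21 to 0.16 in their deviations. Of the pathway calls, the block kept those of Omd and Sdc3 and lost those of Gfpt2, Csgalnact2 and Adamts5 (adjusted p 0.0646, 0.0922 and 0.0973).

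Most counts over all genes also moved by more than 1.5 times elsewhere. Without a limit on low values, limma called 29, 172, 24 and 95 genes in the same order, and with only the 6 libraries of each comparison 47, 320 and 93, the last within 1.5 times. With a limit of 0.1 in place of 1, 19 rose and 23 fell, 247 rose and 179 fell, and 27 rose and 23 fell, with 228 in the F test. With 1 library left out, counts ran from 3 to 92, 93 to 666, 14 to 125 and 74 to 352. The cause was not tested. With 3 libraries a day, no 2-sided exact test of 2 days alone can go below p = 0.10, and at 5 to 30 fragments per library, counting error limits what Has2, Tnfaip6 and Itih4 can show.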
